A study of Homo sapiens with 16 samples.

Results

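CCL20 and 7 further chemokines that draw lymphocytes and other leukocytes, CX3CL1, CXCL16, CCL2, CCL5, CCL17, CCL22 and CCL28, were read in p65 ChIP-Seq tracks of colon cancer cells. They are 8 of the 19962 protein-coding genes of the 23 chromosomes analysed, and were listed by name for this shared role, with earlier results of these data known. Around each gene every 200-bp bin was read from 50 kb upstream of its 5′ end to 10 kb downstream of its 3′ end on GRCh38, which gave 2406 distinct bins of 15155200 in the genome. A bin was called occupied in a group where the mean of its 3 ChIP libraries was at least 2 and at least 4 times that of the group's own input library. The signal is tag density per base for 100-bp fragments, with each library scaled to a total of 10 M tags (M, 1e6).

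ChIP-Seq sequences the chromatin fragments that an antibody pulls down, here an antibody to p65, the RELA subunit of NFκB. The 16 libraries came from HT29 and SW480, both human colorectal adenocarcinoma lines, each stably transfected either with ERβ, the estrogen receptor encoded by ESR2, or with the empty vector (mock). Each of the 4 groups had 3 ChIP libraries and 1 input library. All cells, those of the inputs and mock controls included, were listed as given TNFα at 30 ng/ml for 30 min and cross-linked with disuccinimidyl glutarate for 45 min and 1% formaldehyde for 10 min. No library without TNFα was analysed here, and no ERβ ligand is named in the labels. The methods say that the cells were not given estradiol and were moved a day before ChIP to phenol-red-free medium with charcoal-stripped serum. The transfected cells are engineered lines whose clonality is not given in the sources used here. The labels list the p65 antibody on the inputs too, and these were read as inputs.

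Chemokines are small secreted proteins that guide leukocytes along a gradient by binding receptors of the G-protein-coupled family. CCL20 is the ligand of CCR6 and draws Th17 cells, B cells and immature dendritic cells to mucosal epithelium. CCL2 acts through CCR2 on monocytes and memory T cells, CCL5 draws T cells and monocytes, and CCL17 and CCL22 are the ligands of CCR4. CX3CL1 (fractalkine) and CXCL16 are made as membrane proteins on a mucin stalk, bind CX3CR1 and CXCR6, and are shed by ADAM10 and ADAM17, while CCL28 is a mucosal ligand of CCR10 and CCR3. TNFα frees NFκB dimers that hold p65 from their inhibitor in the cytoplasm, and the dimers then enter the nucleus and bind DNA words known as κB sites, many of them in promoters and enhancers of inflammatory genes.

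On GRCh38, CCL20 lies at chr2:227805739-227817564 (plus strand), CX3CL1 at chr16:57372477-57385044 (plus), CCL17 at chr16:57404767-57416063 (plus) and CCL22 at chr16:57358783-57366189 (plus). CCL2 lies at chr17:34255274-34257208 (plus), CCL5 at chr17:35871491-35880793 (minus), CXCL16 at chr17:4733533-4739928 (minus) and CCL28 at chr5:43376645-43412391 (minus). The windows held 309 bins (CCL2) to 477 bins (CCL28).

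The sequences of 7 bins, each with the highest signal in its stretch, are printed because the comparisons below rest on them. All are the plus strand of GRCh38, 5′ to 3′, and capitals mark exact matches to the κB consensus on either strand. The exceptions are the CCL20 distal bin and the CCL2 bin at -16384, which hold no such match and where capitals mark a looser κB word, GGGNNNNNCC. Positions relative to a gene are bin centres counted from the start site (TSS) of its MANE Select transcript, negative upstream.
CCL20 promoter, chr2:227813601-227813800: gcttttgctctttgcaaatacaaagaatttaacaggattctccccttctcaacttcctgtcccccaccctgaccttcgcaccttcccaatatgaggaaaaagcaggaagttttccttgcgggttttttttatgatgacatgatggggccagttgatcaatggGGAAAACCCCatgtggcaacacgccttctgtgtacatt
CCL20 distal, chr2:227796401-227796600: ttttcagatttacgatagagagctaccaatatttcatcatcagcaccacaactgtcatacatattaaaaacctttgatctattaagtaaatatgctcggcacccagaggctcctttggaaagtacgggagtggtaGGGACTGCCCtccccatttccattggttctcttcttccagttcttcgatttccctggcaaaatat
CCL2 at -2584, chr17:34252601-34252800: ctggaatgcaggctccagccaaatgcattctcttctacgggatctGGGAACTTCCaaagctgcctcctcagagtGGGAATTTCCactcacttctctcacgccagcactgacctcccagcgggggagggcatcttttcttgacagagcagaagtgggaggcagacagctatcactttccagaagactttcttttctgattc
CCL2 at -16384, chr17:34238801-34239000: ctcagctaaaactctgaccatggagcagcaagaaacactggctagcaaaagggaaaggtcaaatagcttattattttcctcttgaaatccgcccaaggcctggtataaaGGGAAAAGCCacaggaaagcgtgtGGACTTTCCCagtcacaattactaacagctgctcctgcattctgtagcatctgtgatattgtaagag
CCL2 at -19584, chr17:34235601-34235800: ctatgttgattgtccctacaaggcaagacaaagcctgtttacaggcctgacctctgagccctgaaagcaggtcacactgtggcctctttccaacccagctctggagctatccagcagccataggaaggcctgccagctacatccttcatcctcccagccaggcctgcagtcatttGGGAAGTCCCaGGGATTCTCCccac
CX3CL1-CCL17 intergenic, chr16:57388601-57388800: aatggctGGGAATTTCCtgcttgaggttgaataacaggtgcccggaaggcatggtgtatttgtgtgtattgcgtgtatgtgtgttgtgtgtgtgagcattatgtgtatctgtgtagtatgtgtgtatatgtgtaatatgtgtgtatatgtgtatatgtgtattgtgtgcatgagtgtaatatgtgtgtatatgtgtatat
CCL28 upstream, chr5:43422401-43422600: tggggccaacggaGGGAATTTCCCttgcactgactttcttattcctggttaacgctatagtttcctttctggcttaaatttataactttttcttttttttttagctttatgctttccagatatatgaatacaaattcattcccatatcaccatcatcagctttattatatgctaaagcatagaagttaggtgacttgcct

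Libraries of a group were not alike in strength. Over the 12569 bins of the genome occupied in at least 1 group, mean signal was 3.14 and 3.64 in the replicate 1 libraries of HT29 against 1.58 to 1.98 in the other 4 HT29 libraries, 1.57 to 1.90 in SW480 mock, and 2.44 in SW480 ERβ replicate 1 against 3.801 and 4.12 in replicates 2 and 3. Calls that change without replicate 1 of all groups are given with the results, and the part of library strength in a result was not tested. The ratio of ESR2 coding exon to intron signal, which a construct without introns raises, was 4.09 to 7.20 in HT29 ERβ against 1.08 to 1.35 in HT29 mock libraries, and 2.38 to 3.02 in SW480 ERβ against 1.28 to 1.58 in SW480 mock libraries, so the ChIP libraries went with their labels. The depth behind each value could not be read from the scaled tracks, so low signal means not detectable in these libraries, and no counting interval is given.

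p65 occupied few bins near these genes, and which genes it occupied differed by line. In HT29 mock cells 16 of the 2406 bins were occupied (0.665%), in HT29 ERβ 14 (0.582%), in SW480 mock 7 (0.291%) and in SW480 ERβ 24 (0.998%). The shares over all bins of the genome were 0.0404%, 0.0268%, 0.00989% and 0.0632% in the same order. Altogether 28 bins were occupied in at least 1 group, and 3 of them, all at CCL20, in all 4 groups. By gene, the windows of 5, 5, 4 and 6 of the 8 chemokines held an occupied bin, while windows drawn the same way held one for 21.5%, 15.7%, 7.56% and 31.6% of all protein-coding genes. The 3 windows on chromosome 16 overlap, with 267 bins shared by CX3CL1 and CCL22, 201 by CX3CL1 and CCL17 and 106 by CCL17 and CCL22, so these genes are not independent members of the count. Near the limits, the lowest occupied means were 2.13, 2.28, 2.44 and 2.14, and the highest means under 2 were 1.94, 1.92, 1.95 and 1.89 in the same order of groups.

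**Figure D1:**
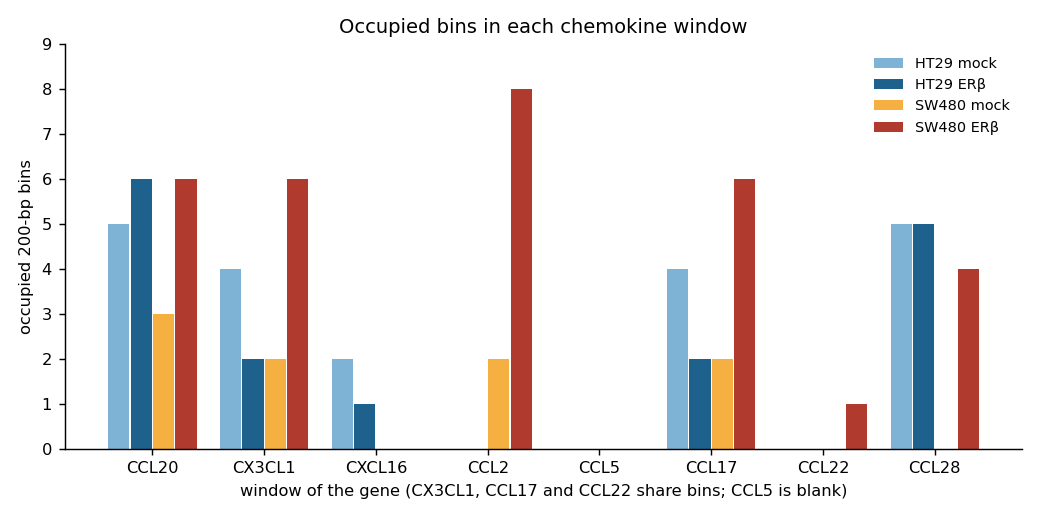
Number of occupied 200-bp bins (vertical axis) in the window of each of the 8 chemokines for the 4 ChIP groups, a bin being occupied at a mean signal of at least 2 and at least 4 times input. CCL20 has 3 to 6 occupied bins in every group, CCL2 has 2 and 8 in SW480 alone, CXCL16 has 2 and 1 in HT29 alone, and CCL5, whose window carries no signal in any library, has none.

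CCL20 was the 1 listed gene whose promoter, from 1 kb before the TSS to 100 bp after it, was occupied in any group. It held 2, 3, 2 and 3 occupied bins in HT29 mock, HT29 ERβ, SW480 mock and SW480 ERβ, against an occupied promoter for 3.94%, 2.54%, 1.06% and 6.33% of protein-coding genes. The bin chr2:227813401-227813600 was unoccupied in HT29 mock at a mean of 2.63, with an input of 0.918. In HT29 ERβ it was occupied at a lower mean of 2.28, with an input of 0.390. Its SW480 means were 1.61 in mock and 2.78 in ERβ. The bin of highest signal spans chr2:227813601-227813800, centred at -141 from the TSS, and has its κB match at -79. Its 3 libraries read 14.96, 9.20 and 8.83 in HT29 mock and 11.5, 6.49 and 8.19 in HT29 ERβ cells. In SW480 they read 4.29, 5.60 and 6.25 in mock and 5.83, 11.2 and 12.5 in ERβ cells, whereas the 4 inputs lay between 0.350 and 0.415. Every ChIP library thus stood far above every input, and group means were 26.5, 24.9, 13.4 and 25.9 times the matching input. HT29 mock libraries were all above SW480 mock libraries, while the mock and ERβ ranges overlapped within each line. Between libraries of the same replicate number, ERβ was below mock in all 3 pairs of HT29 and above it in all 3 of SW480. The fit with a replicate block called neither difference (adjusted p of 1 and 0.232, limma). That block gave each replicate number an effect shared by both lines, so it is not a test of the pairs within a line.

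The CCL20 window held a further stretch of occupied bins between genes, centred at -17341 from the TSS. This distal bin read 9.81, 3.87 and 4.61 in HT29 mock, 8.49, 4.39 and 4.12 in HT29 ERβ, 3.25, 3.38 and 6.26 in SW480 mock and 5.58, 11.9 and 11.7 in SW480 ERβ libraries, with inputs of 0.397 to 0.505. It had no match to the κB consensus and 1 match to the looser word, at -17306. Relative to the promoter bin of the same library, its signal was 0.533 ± 0.118 in HT29 mock, 0.639 ± 0.122 in HT29 ERβ, 0.787 ± 0.201 in SW480 mock and 0.985 ± 0.0717 in SW480 ERβ (mean ± SD, n = 3 each), a ratio taken within each library and given as a description.

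**Figure D2:**
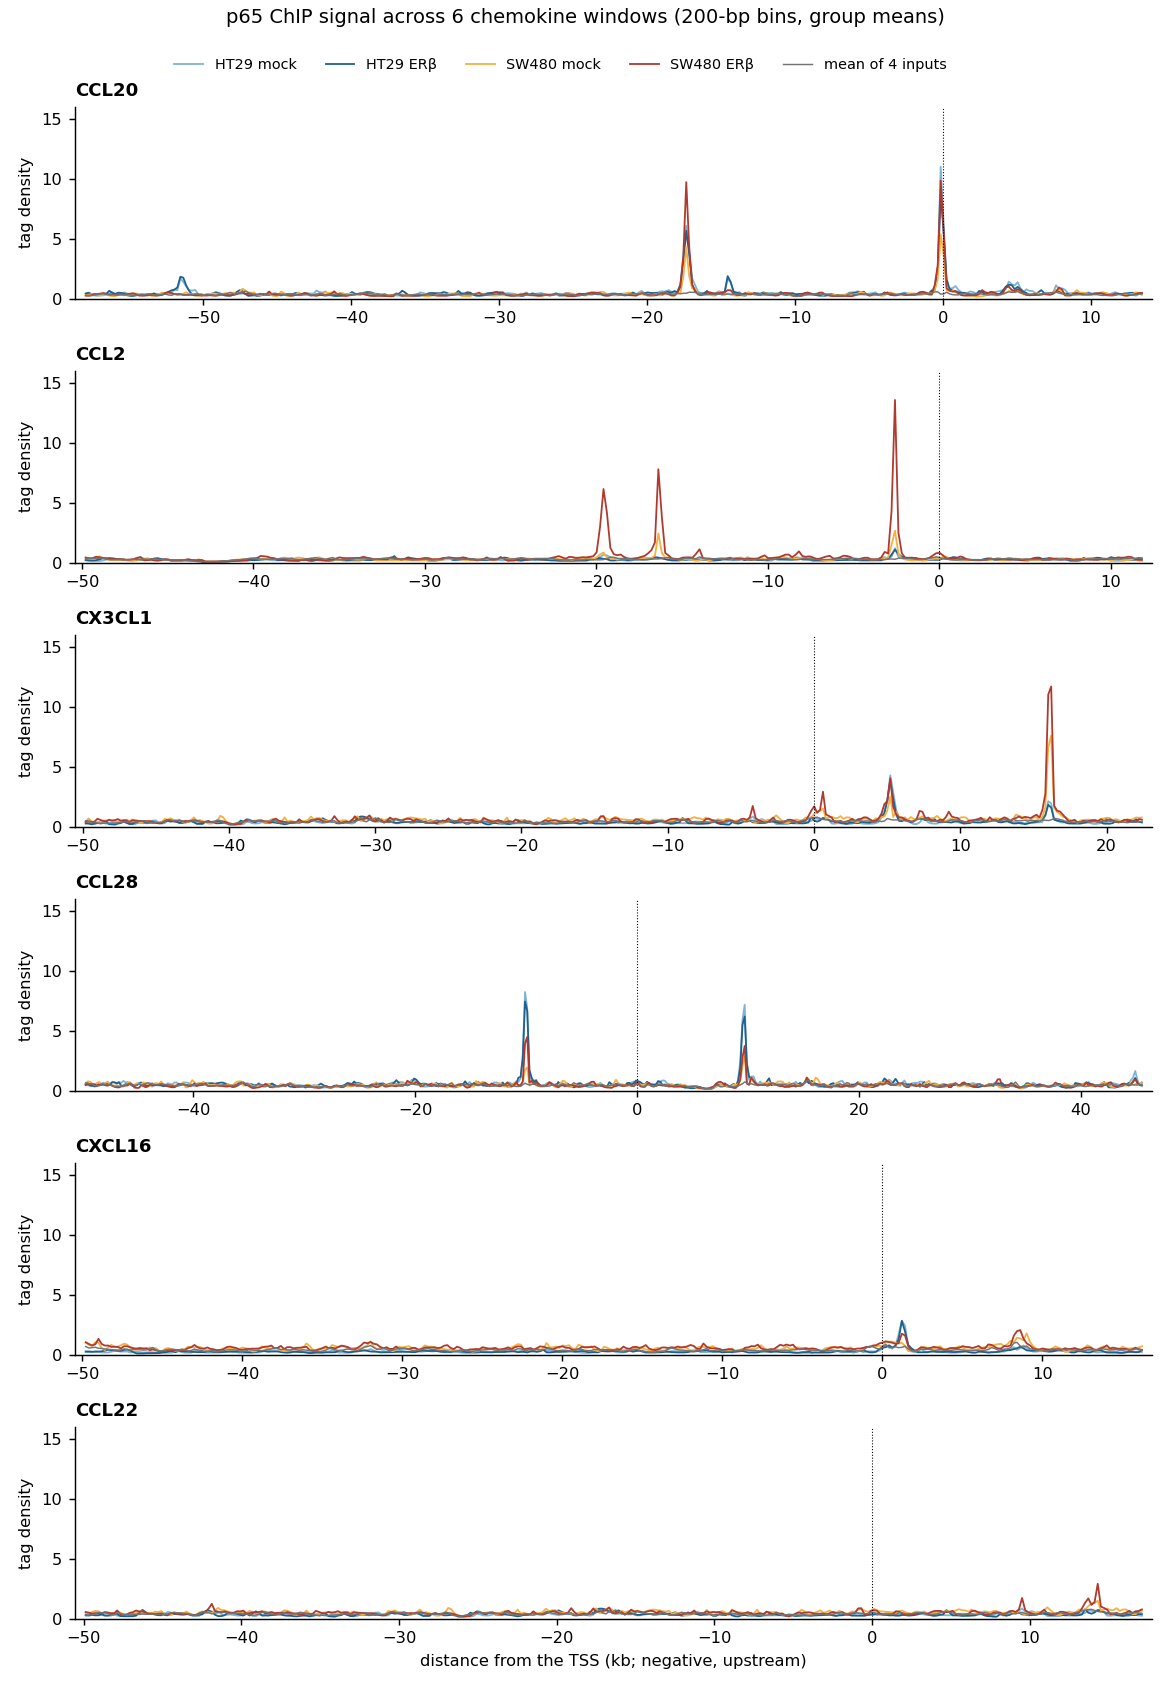
Mean ChIP signal of each group (coloured lines, n = 3 libraries, tag density on the vertical axis) and the mean of the 4 inputs (grey) in 200-bp bins against distance from the TSS in kb, for 6 chemokine windows. CCL20 shows the promoter and the distal bin in all 4 groups, CCL2 shows 3 bins that stand out in SW480 ERβ, and CCL28 shows its intron and upstream bins with higher means in HT29 than in SW480.

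CCL2, the ligand of CCR2, was occupied at 3 places upstream of the gene in SW480 ERβ, while its window held 2 occupied bins in SW480 mock and none in HT29. At -2584 the bin chr17:34252601-34252800 holds 2 κB matches, at -2639 and -2610. It read 2.39, 0.919 and 0.331 in HT29 mock and 1.40, 0.968 and 0.891 in HT29 ERβ libraries, with inputs of 0.150 and 0.243. In SW480 the mock libraries read 1.80, 1.92 and 4.28 and the ERβ libraries 9.61, 17.4 and 13.7, with inputs of 0.309 and 0.440. Mean signal over input was 8.09 and 4.48-fold in HT29 mock and ERβ, and 8.61 and 30.8-fold in SW480 mock and ERβ. The HT29 means of 1.21 and 1.09 thus passed the limit against input and missed the signal limit of 2. The lowest SW480 ERβ library was above the highest SW480 mock library, and group means were 13.6 ± 3.89 and 2.67 ± 1.40 (SD, n = 3), a 5.09-fold difference.

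Farther upstream of CCL2, the bin at -16384 read 2.08, 2.36 and 2.89 in SW480 mock and 6.02, 10.4 and 6.96 in SW480 ERβ libraries, against 0.326, 0.482 and 0.494 in HT29 mock and 0.413, 0.190 and 0.620 in HT29 ERβ libraries. Both SW480 groups lay above all HT29 libraries here, and the ERβ mean was 3.19 times the mock mean. At -19584 the SW480 mock libraries read 0.412, 0.856 and 1.30, below the limit of occupancy, and the SW480 ERβ libraries 6.57, 6.10 and 5.77, 7.19 times as much on average. In HT29 the same bin read 0.671, 1.02 and 0.290 in mock and 0.259, 0.410 and 0.290 in ERβ cells. Only SW480 ERβ was therefore occupied at -19584, and its 3 libraries lay close together. This bin holds 2 κB matches, at -19509 and -19498, and the bin at -16384 holds 2 matches to the looser word alone. The CCL2 promoter itself was unoccupied in all 4 groups, as given with the other promoters.

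The neighbouring genes CCL22, CX3CL1 and CCL17 lie on chromosome 16 in that order. The windows of CX3CL1 and CCL17 held the same 3 occupied places, and that of CCL22 held 1 of them. The strongest lay between CX3CL1 and CCL17, at 16211 from the CX3CL1 TSS and -16066 from that of CCL17, with a κB match at -16159 from the latter. It read 6.61, 7.23 and 9.02 in SW480 mock and 6.56, 14.03 and 14.5 in SW480 ERβ libraries, and 2.77, 1.88 and 1.16 in HT29 mock and 2.32, 1.01 and 1.45 in HT29 ERβ libraries. SW480 libraries were all higher than HT29 libraries. Input also differed between lines at this bin, with 0.358 and 0.300 in HT29 against 1.04 and 0.584 in SW480, and the part of input in the difference was not tested. Mean signal over input was 7.33 and 20.04-fold in SW480 mock and ERβ, and 5.42 and 5.31-fold in HT29, where the means of 1.94 and 1.59 were under the signal limit of 2. The bin beside it passed both limits in HT29 mock, with a mean of 2.13 and an input of 0.390.

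Inside CX3CL1, which encodes fractalkine, a bin at 5211 that overlaps an exon, chr16:57377601-57377800, had its highest mean in HT29 mock. It read 5.59, 3.49 and 3.797 in HT29 mock, 5.67, 3.18 and 2.66 in HT29 ERβ, 2.53, 2.98 and 2.01 in SW480 mock and 1.77, 4.93 and 5.43 in SW480 ERβ libraries. SW480 mock, at 2.50 on average, was 3.38 times its input and so not occupied, whereas the other 3 groups were. The ratio of this exon bin to the intergenic bin in the same library was 2.38 ± 0.772 in HT29 mock, 2.47 ± 0.651 in HT29 ERβ, 0.339 ± 0.102 in SW480 mock and 0.332 ± 0.0550 in SW480 ERβ (mean ± SD, n = 3 each). The exon bin led in HT29 and the intergenic bin in SW480, and within a line the ratio differed between mock and ERβ by less than its SD. Nearer the TSS, an intron bin at 611 was occupied in SW480 ERβ alone, where the libraries read 2.28, 4.56 and 1.92, against 1.80, 1.21 and 1.54 in SW480 mock and no more than 1.14 in any HT29 library. That bin was also the highest of the CCL22 window. Apart from it CCL22 held no occupied bin, and its highest bin nearer to its own TSS than to that of another listed gene, at -16682, had means of 0.680, 0.596, 0.915 and 0.946 in the 4 groups.

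CCL28, the mucosal ligand of CCR10, was occupied upstream and in an intron, with the highest signal in HT29. The upstream bin, centred at -10110 on chr5:43422401-43422600, read 13.9, 4.997 and 5.76 in HT29 mock and 13.5, 4.65 and 4.20 in HT29 ERβ libraries. In SW480 it read 1.34, 1.90 and 1.96 in mock and 2.11, 4.80 and 4.95 in ERβ libraries, so the lowest HT29 mock library was above every SW480 mock library. Input differed the same way, with 0.806 and 0.800 in HT29 mock and ERβ against 0.5025 and 0.420 in SW480. Mean signal over input was 10.2 and 9.30-fold in HT29 mock and ERβ, and 3.45 and 9.42-fold in SW480 mock and ERβ. The part of input in the difference was not tested. The neighbouring bin of this stretch passed the limits in SW480 ERβ too, and none did in SW480 mock. The intron bin read 11.8, 3.97 and 5.76 and 9.91, 3.42 and 5.27 in HT29 mock and ERβ, and 3.41, 2.94 and 2.35 and 1.25, 5.18 and 4.79 in SW480 mock and ERβ libraries. Its SW480 mock mean of 2.90 was 3.10 times input and so missed the limit. The upstream bin holds a pair of overlapping κB matches. In HT29 the replicate 1 libraries stood above those of replicates 2 and 3 at both places, as they did over all occupied bins.

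CXCL16, the ligand of CXCR6, was occupied weakly and in HT29 only. Its bin at 1227, chr17:4738601-4738800, lies in an intron of CXCL16 and overlaps an exon, and its centre is at -1132 from the TSS of ZMYND15, the nearest start site. The libraries read 3.96, 2.43 and 2.14 in HT29 mock and 4.05, 2.39 and 2.03 in HT29 ERβ, against 0.896, 0.894 and 1.2 in SW480 mock and 1.34, 2.83 and 1.09 in SW480 ERβ. Over input this was 9.52 and 6.26-fold in HT29 but 1.29 and 1.86-fold in SW480, whose inputs were higher at 0.775 and 0.945 against 0.299 and 0.451. SW480 mock libraries were all below HT29 mock libraries, while the ERβ libraries of the lines overlapped.

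CCL5, which draws T cells and monocytes, could not be read. All 345 bins of its window were at 0 in all 16 libraries, inputs included, within a blank stretch of 193.6 kb at chr17:35765601-35959200. The same held for the windows of 427 of the 19962 protein-coding genes (2.14%). A blank stretch in the inputs leaves nothing to compare with, so CCL5 is counted among genes without an occupied bin but cannot be called empty, and 7 of the 8 chemokines were readable.

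**Figure D3:**
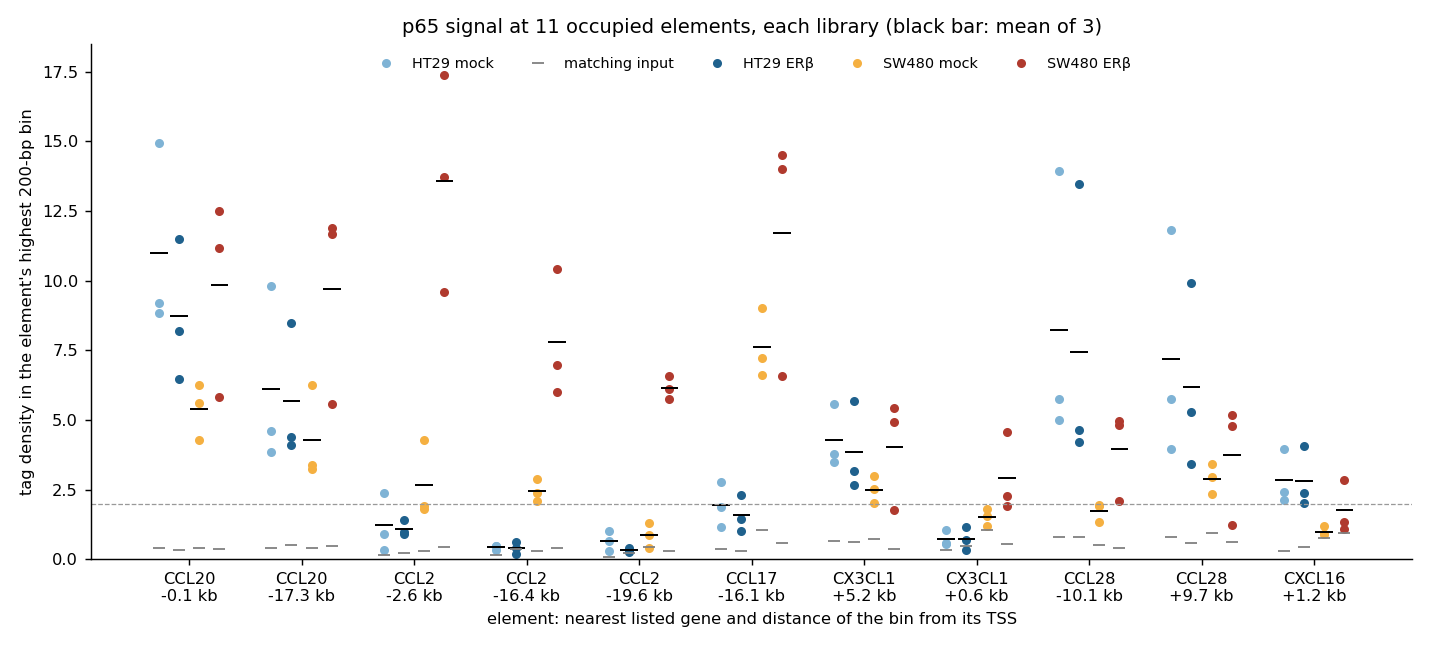
Signal (tag density, vertical axis) of each library (points), the mean of 3 (black bars) and the matching input (grey dashes) at the highest bin of each of the 11 occupied stretches, by group, with the occupancy limit of 2 as a dashed line. SW480 ERβ libraries lie above all others at the CCL2 bins, from 5.77 to 17.4, and SW480 libraries lie above HT29 libraries at the bin between CX3CL1 and CCL17.

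The other readable promoters stayed empty under these limits. At the highest promoter bin of CX3CL1, CXCL16, CCL2, CCL17, CCL22 and CCL28 the highest group mean was 1.70, at CX3CL1 in SW480 ERβ, and the largest excess over the matching input was 3.81-fold, at CCL17 in HT29 mock, where the signal was 0.533 and the input 0.140. For CCL2 the ChIP libraries ranged from 0.150 to 1.17 and the inputs from 0.380 to 0.550. For CCL28 they ranged from 0.252 to 1.22, with inputs of 0.371 to 0.754, while its intron and upstream bins reached 11.8 and 13.9 in single libraries.

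Occupied and unoccupied promoters alike held κB matches. Within 1 kb upstream of the TSS, 6 of the 8 chemokines hold the consensus, compared with 27.0% of all protein-coding genes, and of their 9 matches 6 lie in readable genes and 2 of these, both at CCL20, in an occupied bin. The CCL20 match at -79 is GGAAAACCCC and that at -356 is GGAATGTTCC, where the group means were 2.63, 2.28, 1.61 and 2.78. The CCL2 match at -84, GGAAGATCCC, lies in a bin with means of 0.407, 0.241, 0.306 and 0.824, at most 2.23 times input. Matches at -648 of CX3CL1, -203 of CXCL16 and -185 of CCL22 lie in bins with means of no more than 0.948. Across bins, the consensus was in 2.91% of all bins of the genome, 38.6% of the 12569 bins occupied in at least 1 group, 5.44% of the bins of the listed windows and 11 of their 28 occupied bins (39.3%). The looser word was in 16.7%, 69.2%, 25.2% and 67.9% of the same sets. AP-1 words, spelled TGANTCA, were in 6.17%, 12.5%, 6.32% and 7.14%, the last being 2 bins. All motifs were counted as exact matches on both strands, each consensus match can overlap a match to the looser word, and a match is a description of the letters alone.

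ERβ was then compared with mock within each line, over the 30544 bins of the genome whose mean over the 12 ChIP libraries was at least 0.5 and at least 2 times that of the 4 inputs. This filter does not look at groups, and the highest bin of each window by the 12-library mean was chosen without them too. A bin can still have passed through 1 high group, and the other stretches were listed because some group was occupied, so how many of them differ is not evidence of its own. Differences are on the log2(signal + 1) scale, which understates those of low bins, p-values are from limma with the Benjamini-Hochberg adjustment over all tested bins, and 49 of the bins lie in the listed windows. Neighbouring bins of a stretch are counted separately, so these bins are not independent members and called bins can share a stretch. The study calls the 3 libraries of a group biological replicates, and where their cultures were not separate the p-values measure technical spread only.

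In HT29, no bin was called higher or lower with ERβ, in the genome (0% in either direction) or in the chemokine windows. At an unadjusted p under 0.05 limma gave 76 higher and 538 lower bins in the genome and none in the windows. The genome counts were 51 and 3119 without HT29 ERβ replicate 1 but 473 and 140 without HT29 mock replicate 1. Without replicate 1 of all groups they were 319 and 1936, with none in the windows. At the adjusted threshold, with array weights limma called 26 higher and 156 lower bins and with a replicate block 1 and 1, again with none in the windows. Every ERβ library lay below every mock library in 1 member bin (2.04%, against 3.66% of tested bins) and above in 0 (against 1.19%). At the 11 leading bins differences ran from -0.31 to 0.016. The 95% intervals were wide, -1.06 to 0.47 at the CCL20 promoter and -0.69 to 0.72 at the CCL2 bin at -2584, so a moderate difference in either direction was not detectable. The median over the member bins was -0.11 and over all tested bins -0.10. With single HT29 libraries left out they ran from -0.27 to 0.097 and from -0.23 to 0.045, so their sign depended on which library was left out. The lowest came without HT29 ERβ replicate 1 and the highest without HT29 mock replicate 1, and each of these fits splits a same-numbered pair. Without replicate 1 of all groups the medians were -0.12 and -0.087.

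In SW480, the CCL2 bins rose with ERβ, and no other member bin was called. Of the 49 member bins 9 were higher (18.4%) and none lower, and all 9 belong to CCL2, where 10 bins were tested. The background was 5185 of 30544 bins higher (17.0%) and 4 lower (0.0131%), so the share of member bins was near that of the genome in this fit. Without SW480 ERβ replicate 1, 17 member bins (34.7%) were higher against 29.7% of tested bins. Without SW480 ERβ replicate 2 or 3 or SW480 mock replicate 1 or 2, 9 or 10 member bins were higher (18.4% to 20.4%), while those of the genome fell to 7.78% to 9.18%. Of the 9 bins 4 passed the filter on low values through SW480 ERβ alone, since the other 9 ChIP libraries did not reach it, but the 3 leading bins passed without it. The difference was 2.02 on the log2 scale (SE 0.36, adjusted p = 2.58e-05, limma) at -2584, 1.33 on the log2 scale (SE 0.30, adjusted p = 0.000926, limma) at -16384 and 1.97 on the log2 scale (SE 0.27, adjusted p = 9.6e-08, limma) at -19584. Larger differences were seen in 0.0917%, 1.72% and 0.0982% of tested bins, in that order. The bin at -19584 was listed because SW480 ERβ alone was occupied there, so its p-value is not independent of that choice. In each of these 3 bins the mock and ERβ ranges did not overlap, which with 3 libraries against 3 gives the smallest p an exact permutation test allows, 0.1 two-sided. Of all tested bins 37.4% had every SW480 ERβ library above every mock library, and of the member bins 19 (38.8%), CCL28 upstream and the CX3CL1 intron bin among them.

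At CCL20 the SW480 ERβ mean was 1.83 times the mock mean at the promoter and 2.26 times at the distal bin, and neither passed the test. The promoter differed by 0.72 on the log2 scale (SE 0.38, adjusted p = 0.181, limma), with a 95% interval of -0.047 to 1.48, and the distal bin by 1.00 on the log2 scale (SE 0.39, adjusted p = 0.0664, limma), with 0.21 to 1.78. Of all tested bins 19.2% had a larger difference than the promoter and 6.74% than the distal bin. These calls turned on the libraries and their weights. Without SW480 ERβ replicate 1, which read 5.83 and 5.58 at these bins, adjusted p was 0.0442 at the promoter and 0.015 at the distal bin (limma), and without replicate 1 of all 4 groups the differences were 0.89 (adjusted p = 0.000439) and 1.18 (adjusted p = 4.89e-05). The distal bin was called as well without HT29 mock or HT29 ERβ replicate 1, with adjusted p of 0.0333 and 0.0276, and under a stricter filter on tested bins, a mean of at least 1 and at least 4 times input (0.0413). With array weights and all libraries kept, both were called, at 0.94 (adjusted p = 0.00149) and 1.28 (adjusted p = 1.64e-05).

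CX3CL1, CXCL16, CCL17 and CCL28 had positive differences in SW480 that did not pass, 0.44 at the CX3CL1 exon bin, 0.50 at the intergenic bin, 0.42 at CXCL16, 0.81 at CCL28 upstream and 0.16 in the CCL28 intron, with adjusted p of 0.141 to 0.801 (limma). The CX3CL1 intron bin, which passed the filter through SW480 ERβ alone, differed by 0.59, given with no test. These are to be read against the median of all tested bins, which was 0.38, with 0.47 for the member bins. Without SW480 ERβ replicate 1 the CCL28 upstream bin was called too, at an adjusted p of 0.0416. Its ERβ libraries, 2.11 to 4.95, lay above the mock libraries, 1.34 to 1.96. Without replicate 1 of all 4 groups, a choice made after seeing the data that raised the bins called in the genome to 13622, each of the tested bins but that of CXCL16 passed, with adjusted p of 0.000393 to 0.0109 (limma), and the higher member bins rose to 26. With array weights and all libraries kept, CCL28 upstream (adjusted p = 0.000805), the CX3CL1 exon bin (0.0286) and the intergenic bin (0.0128) were called.

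**Figure D4:**
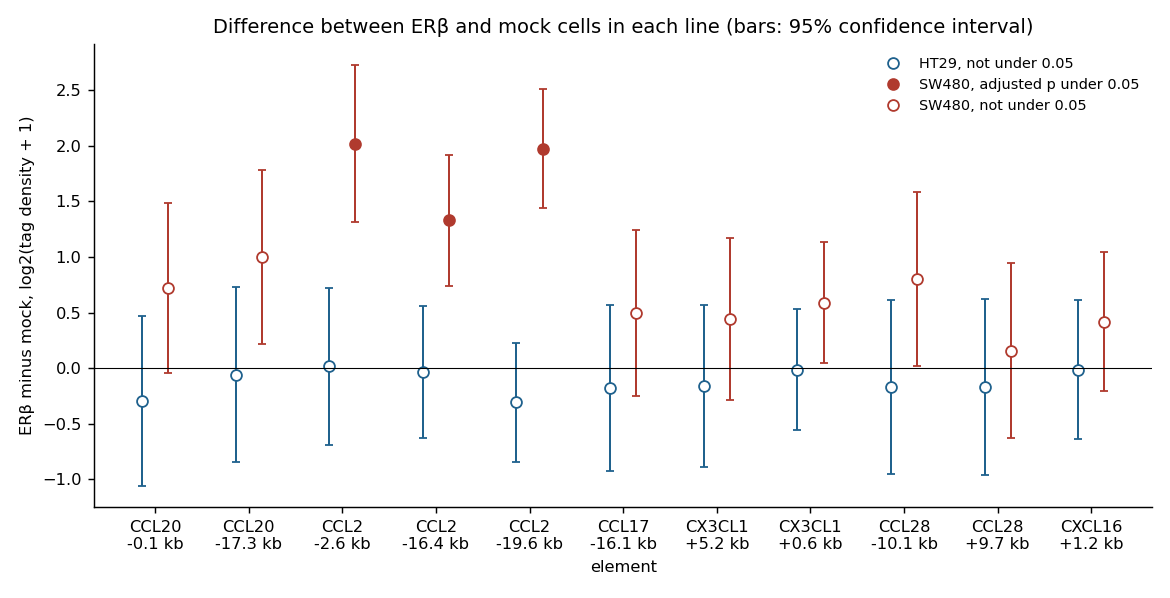
Difference of ERβ minus mock in log2(signal + 1), with its 95% interval from limma (bars; filled points passed the test), at the highest bin of each of the 11 occupied stretches in HT29 and SW480. HT29 values lie between -0.31 and 0.016 with intervals that span 0, whereas in SW480 the 3 CCL2 bins lie at 1.33 to 2.02. The CX3CL1 intron bin passed the filter on low values through SW480 ERβ alone, so its interval is no test.

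The ERβ effect itself was compared between lines as an interaction. It was larger in SW480 by 2.28 on the log2 scale (SE 0.38, adjusted p = 9.41e-05, limma) at the CCL2 bin at -19584, by 2.00 on the log2 scale (SE 0.50, adjusted p = 0.0105, limma) at -2584 and by 1.36 on the log2 scale (SE 0.42, adjusted p = 0.0387, limma) at -16384. The p-value at -19584 is again not independent of the choice of that bin, which was listed for its SW480 ERβ occupancy. Among member bins 6 passed (12.2%), all at CCL2, against 5.99% of tested bins with a larger effect in SW480, 1.93% to 19.7% with single libraries left out, and 0% with a smaller one. Of the 6, in which neighbouring bins of a stretch count separately, 2 passed the filter through SW480 ERβ alone. The 6 bins became 3 without SW480 mock replicate 1 and 10 without HT29 ERβ replicate 1. The bin at -19584 was called in all 13 fits that left out libraries, and that at -2584 in 12, with an adjusted p of 0.0532 without SW480 mock replicate 1. The bin at -16384 was called in 5 of the 13, and was lost without SW480 ERβ replicate 2 or 3, SW480 mock replicate 1 or 2, HT29 ERβ replicate 2 or 3, or HT29 mock replicate 2 or 3, with adjusted p of 0.0568 to 0.138, and also with a pseudocount of 0.25 (0.0643) and with no limit against input (0.112). At the CCL20 promoter the interaction was 1.02 on the log2 scale (SE 0.54, adjusted p = 0.219, limma), with a 95% interval of -0.065 to 2.10, and at its distal bin 1.06 on the log2 scale (SE 0.56, adjusted p = 0.213, limma). The CCL28 upstream bin, at 0.98, was called without HT29 ERβ replicate 1 (adjusted p = 0.0349). Without replicate 1 of all groups both CCL20 bins passed, at 1.16 (adjusted p = 0.00215) and 1.17 (adjusted p = 0.00483), and so did the CCL28 upstream and intron bins and the CX3CL1 exon and intergenic bins, with adjusted p of 0.00322 to 0.0405 (limma). With array weights and all libraries, both CCL20 bins, CCL28 upstream and the CX3CL1 exon bin passed, with adjusted p of 0.0022 to 0.0358.

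Between the lines without ERβ, bins of CCL28, CCL20 and CXCL16 were lower and the CX3CL1-CCL17 intergenic stretch and 2 CCL2 bins higher in SW480. Of these CCL2 bins, chr17:34252401-34252600 was not called in the fit with a replicate block (adjusted p = 0.0521, limma). Of the 49 member bins 4 were higher (8.16%) and 15 lower (30.6%) in SW480 mock than in HT29 mock, against 5.94% and 22% of tested bins. The lower bins were 7 of 10 at CCL28, 5 of 16 at CCL20, 2 of 3 at CXCL16 and 1 of 10 in the CX3CL1 window. Without HT29 mock replicate 1, a library of high signal, the lower bins fell to 2 (4.08%, against 10.4% of tested bins), so the order of the shares turned. Without SW480 mock replicate 1 they fell to 7 (14.3%, against 14.4%) and without SW480 mock replicate 2 to 9 (18.4%, against 15.8%). Without SW480 mock replicate 3 the higher bins fell to 2 (4.08%, against 3.54%). The CCL28 upstream bin differed by -1.64 on the log2 scale (SE 0.39, adjusted p = 0.0011, limma) and was called in every fit that left out libraries. The CXCL16 bin differed by -0.92 on the log2 scale (SE 0.31, adjusted p = 0.0213, limma) and was lost without SW480 mock replicate 1 or 2 or HT29 mock replicate 1, with adjusted p of 0.0803, 0.0813 and 0.113. The intergenic bin differed by 1.58 on the log2 scale (SE 0.38, adjusted p = 0.000964, limma) and the CCL2 bin at -16384 by 1.26 on the log2 scale (SE 0.30, adjusted p = 0.00093, limma), both called in every such fit. That CCL2 bin was listed for its occupancy in SW480, so its p-value is not independent of that choice. The CCL28 intron bin, at -0.96 (adjusted p = 0.0589), was called without SW480 ERβ replicate 1, HT29 ERβ replicate 1 or HT29 mock replicate 2 (adjusted p of 0.0223 to 0.0432), and the CCL2 bin at -2584, at 0.77 (adjusted p = 0.0939), without HT29 mock replicate 1 (0.0214). Without replicate 1 of all groups both were called (0.0269 and 7.08e-05). With all libraries kept both were called with a pseudocount of 0.25 (0.0424 and 0.0311) and with array weights (0.00393 and 1.46e-06), and the CCL28 intron bin also under the stricter filter (0.0316), with no limit against input (0.0254) and with the input subtracted (0.0454).

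At the CCL20 promoter SW480 mock differed from HT29 mock by -0.89, short of the threshold (SE 0.38, adjusted p = 0.0733, limma). It was called without SW480 ERβ replicate 1 (adjusted p = 0.0496), without HT29 ERβ replicate 1 (0.0348) and, at -0.53, without replicate 1 of all groups (0.0439). With all libraries kept it was called with array weights, at -0.69 (0.00648), and with no limit against input (0.00933). Its distal bin differed by -0.38 (adjusted p = 0.501, limma), so neither of these bins is among the 5 CCL20 bins called lower.

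With ERβ, the CCL2 bins had the largest differences between lines among the 11 leading bins. In the fit 14 member bins were higher in SW480 ERβ than in HT29 ERβ (28.6%, against 28.8% of tested bins), all 10 tested CCL2 bins among them, but 6 of the 14, with 5 at CCL2, reached the fit through SW480 ERβ alone and support nothing. There were 8 lower member bins (16.3%, against 9.43%), and of these 4 were at CCL20 and 4 at CCL28. The lower bins became 5 (10.2%) without SW480 ERβ replicate 1 or 2, against 7.22% and 7.63% of tested bins, and 4 (8.16%, against 5.20%) without HT29 ERβ replicate 1. The 3 leading CCL2 bins differed by 2.78, 2.62 and 2.44 at -2584, -16384 and -19584, with adjusted p of 3.95e-09, 1.8e-10 and 7.64e-11 (limma). Those at -16384 and -19584 were listed for their occupancy in SW480, so their p-values are not independent of that choice. The intergenic bin of CX3CL1 and CCL17 differed by 2.25 on the log2 scale (SE 0.38, adjusted p = 1.52e-06, limma) and the CX3CL1 intron bin, which passed the filter through SW480 ERβ alone, by 1.15, given with no test. The CCL20 distal bin, at 0.68 (adjusted p = 0.169), was called without replicate 1 of SW480 ERβ (0.0474) or of HT29 ERβ (0.0382), and at 1.09 with array weights and all libraries kept (0.00045). The CXCL16 bin, at -0.49 (adjusted p = 0.218), was called with the input subtracted, at -0.97 (0.0352). CCL20 did not differ at the promoter (0.13, 95% interval -0.64 to 0.89, adjusted p = 0.819) beyond its spread in the fit with all libraries. Without replicate 1 of all groups it was called, at 0.63 (adjusted p = 0.00699, limma), as were the distal bin, at 1.28 (adjusted p = 3.29e-06), and the CX3CL1 exon bin, at 0.66 (adjusted p = 0.0134). The ERβ and mock comparisons between lines share no libraries, but both share libraries with the ERβ comparisons above.

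Mean signal over the whole promoter span was also tested in all 19962 genes. With ERβ no member promoter was called in either line. In SW480, 18 promoters of the genome were higher (0.0902%) and 3 lower, or 4 and 2 in the fit with a replicate block. In HT29 none was called, with 248 higher and 450 lower at an unadjusted p under 0.05 (259 and 921 without HT29 ERβ replicate 1, 378 and 369 without HT29 mock replicate 1) and again none by limma with array weights. Without replicate 1 of all groups the unadjusted HT29 counts were 295 and 655, and 2 higher and 3 lower promoters were called. The CCL2 promoter had the largest unadjusted support, 0.29 in SW480 (adjusted p = 0.32, limma), at the low signal given above.

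Between lines, the CX3CL1 and CXCL16 promoters were higher in SW480 mock, by 0.26 (adjusted p = 0.0239) and 0.36 (adjusted p = 0.0133, limma), where 13.8% of promoters were. With ERβ 5 members were higher in SW480, against 24.2% of promoters. They were CX3CL1 (0.42, adjusted p = 0.00201), CXCL16 (0.44, 0.00321), CCL17 (0.34, 0.0334), CCL22 (0.33, 0.0367) and CCL2 (0.32, 0.0375), the last not called in the fit with a replicate block (adjusted p = 0.0532). These promoters were unoccupied, and inputs differed between the lines too. Median input over the CXCL16 window was 0.240 and 0.270 in HT29 mock and ERβ but 0.590 and 0.480 in SW480, and over the CX3CL1 window 0.340 and 0.363 but 0.5 and 0.459. The part of input in these differences was not tested. Several of these calls rest on single libraries. That of CX3CL1 in mock cells was lost without replicate 1 or 2 of SW480 mock or of HT29 mock, with adjusted p of 0.0691 to 0.0838 (limma). Without replicate 1 of all groups the calls of both in mock cells and of CCL17, CCL22 and CCL2 in ERβ cells were lost, with adjusted p of 0.0544 to 0.146. That of CCL17 in ERβ cells was also lost with array weights and all libraries kept (0.0542). In ERβ cells those of CCL17 and CCL22 were lost without SW480 ERβ replicate 2 or 3 or HT29 ERβ replicate 1 or 2, and that of CCL2 without SW480 ERβ replicate 1 or 3 or HT29 ERβ replicate 2 or 3, with adjusted p of 0.0704 to 0.122.

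The rest of the chemokine system was read from a list of 46 genes, 16 receptors, 4 atypical receptors, the sheddases ADAM10 and ADAM17 and 24 other ligands, of which 41 promoters carried signal. Their promoters were occupied for 1 gene in HT29 mock, 2 in HT29 ERβ, none in SW480 mock and 2 in SW480 ERβ, and all were receptors, against 3.94%, 2.54%, 1.06% and 6.33% of all protein-coding promoters. Windows with an occupied bin numbered 2, 3, 3 and 14 in the same order, against 21.5%, 15.7%, 7.56% and 31.6% of all protein-coding genes, and those of CCL7 and CCL11, which neighbour CCL2, overlap its window. No promoter of another ligand, an atypical receptor or a sheddase was occupied.

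CXCR6, the receptor of CXCL16, was occupied in SW480 ERβ alone, at chr3:45942601-45942800, centred at -763 from its TSS. It read 6.94, 7.92 and 4.49 in SW480 ERβ and 0.484, 0.720 and 0.561 in SW480 mock libraries, and 0.217, 0.240 and 0.310 and 0.5, 0.439 and 0.307 in HT29 ERβ and mock libraries. The SW480 ERβ libraries lay above all 9 others. Those 9 averaged 0.420 against 0.393 in the inputs, so the bin passed the filter on low values through SW480 ERβ alone and is given as a description, with no test. CCR10, the receptor of CCL28, read 1.30, 2.53 and 2.37 in SW480 mock and 4.28, 9.43 and 7.97 in SW480 ERβ libraries at -658, and 2.97, 2.18 and 2.03 and 2.84, 1.78 and 1.88 in HT29 mock and ERβ. This bin was occupied in all groups but SW480 mock, where the mean of 2.07 passed the signal limit and the input was 0.73. Inputs were 0.25 in HT29 mock, 0.33 in HT29 ERβ and 0.41 in SW480 ERβ. The bin rose with ERβ in SW480 by 1.39 on the log2 scale (SE 0.35, adjusted p = 0.00315, limma), a call lost without SW480 mock replicate 1 (adjusted p = 0.0554). Its interaction did not pass, at 1.5 on the log2 scale (SE 0.50, adjusted p = 0.0528, limma), but did without replicate 1 of SW480 ERβ (0.0113) or of HT29 ERβ (0.0137), and without that of all groups (0.000305). With all libraries kept it passed with array weights (7.22e-05), under the stricter filter (0.0422) and with the input subtracted (0.0216). CXCR5, the receptor that guides B cells into follicles, was occupied in HT29 ERβ alone, with group means of 1.70, 2.10, 0.759 and 1.19 and no difference called.

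Among 1405 protein-coding promoters occupied in at least 1 group, those most like the CCL20 promoter over the 12 ChIP libraries were USP49, BAIAP2L1, ADRA2B, TRNP1 and DBF4, with Pearson r of 0.972, 0.966, 0.966, 0.962 and 0.962 of log2(signal + 1). The 12 points share library strength, which differs as given above, and the correlations are a description.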

How the data were processed

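p65 ChIP-Seq had been carried out in 12 libraries of HT29 and SW480 cells, with 4 inputs. According to the submitters' processing notes and the methods, reads were aligned to GRCh38 with STAR and processed with HOMER, whose versions are not given in the sources used here. The authors deposited 1 track per library of coverage signal, tag density scaled by them to 10 M tags and 100-bp fragments, from which values under 0.05 are absent. The height of 1 tag cannot be told from these values, so no count test was run and the depth behind each value is not known from these files. The scaling sets all libraries to 1 total, so signal at occupied bins still moves with the strength of the pull-down. The methods say that the ERβ inputs came from another series of libraries.

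Signal was averaged per 200-bp bin (Python 3.11.15, numpy 2.4.6, pandas 2.3.3), and genes were taken from the GENCODE annotation supplied with GRCh38. Bins and promoters were fitted with limma 3.58.1 (R 4.3.3, mean-variance trend, 4 group means) on log2(signal + 1), with Benjamini-Hochberg adjustment and a threshold of 0.05. The fit was tested on simulated data. All 8 genes are named, with the highest bin of each window, their promoters and each stretch of occupied bins joined over gaps of at most 1 bin, and genes of the pathway list where their promoter was occupied. The members and lists were chosen with earlier results of these data known.

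Replicate numbers were checked for pairing by the correlation of deviations from group means over 12569 bins, which was 0.580, 0.235 and 0.261 between same-numbered mock and ERβ libraries of HT29 and 0.316, 0.143 and 0.226 in SW480. All exceed 0.1, so the numbers were taken to pair libraries, from the data and not the labels. In HT29 mock 2 with ERβ 3 (0.277) and mock 3 with ERβ 2 (0.195) were as alike, so replicates 2 and 3 are not told apart there. Alternatives covered the occupancy limits, input, grid, window, scaling, pseudocount, array weights, filters, promoter span, replicate block and libraries left out. The replicate block held the same effects for both lines, so pairing within each line was not modelled in any fit. Leaving out replicate 1 of all groups, subtracting the input and leaving out promoters at 0 were chosen after seeing the data.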

Additional observations from a re-analysis of the deposited data

Results flagged for a closer look

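The ERβ effect on p65 signal differed between SW480 and HT29 by the interaction term of the limma fit at 3 bins upstream of CCL2. Values are the effect in SW480 minus that in HT29 on the log2(signal + 1) scale. At the CCL2 bin at -19584 the difference was 2.28 (adjusted p = 9.41e-05), with effects of 1.97 in SW480 and -0.31 in HT29. This bin was listed because SW480 ERβ alone was occupied there, so its p-value is not independent of that choice. The CCL2 bin at -16384 differed by 1.36 (adjusted p = 0.0387), a call lost in 8 of the 13 fits without some library, with a pseudocount of 0.25 and with no limit against input, and that at -2584 by 2.00 (adjusted p = 0.0105). All 3 were higher in each of the 3 SW480 ERβ libraries than in any SW480 mock library, as were 37.4% of tested bins. Library strength differed between these groups too, and its part in the results was not tested.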

How the results depend on the processing

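The depth behind each value is not known from these tracks, the grid is coarse beside a binding site, and 3 libraries against 3 cannot give an exact permutation p under 0.1, so weak binding and moderate differences were not detectable here. Inputs were single libraries, and occupancy rests on them. The number of occupied bins stayed within 1.5 times the reported one under every alternative, from 10 to 20 in each HT29 group, 5 to 10 in SW480 mock and 18 to 26 in SW480 ERβ. The 3 CCL2 bins, of which that at -19584 was listed for its SW480 ERβ occupancy, kept their ERβ call in SW480 in all fits, with adjusted p of at most 0.0167 (limma). The fit with a replicate block called 4941 bins higher with ERβ in SW480, 9 of them in the windows. It took the member bins higher in SW480 mock from 4 to 3, losing the bin chr17:34252401-34252600 upstream of CCL2 (adjusted p = 0.0521), took the member promoters higher in SW480 mock from 2 to 3 and called 1 higher and 1 lower bin of the genome for ERβ in HT29. Beside these and the promoter counts given with it in the text, it changed no call named here.

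Counts of called member bins moved more. Of the bins higher with ERβ in SW480, 9 were called, 28 with array weights (57.1%, against 49.9% of tested bins), 14 with the input subtracted (28.6%, against 31.1%) and 9 to 26 with libraries left out. For the interaction the 6 bins became 24 with array weights (49.0%, against 42.04%) and 11 with the input subtracted (22.4%, against 21.4%), and 3 to 21 with libraries left out. Between mock cells of the lines, the 4 higher bins became 8 with array weights (16.3%, against 14.9% of tested bins), 62 of 473 with no limit against input (13.1%, against 12.1%) and 2 to 5 with libraries left out, and the 15 lower bins became 4 of 19 under the stricter filter (21.1%, against 31.3%) and 2 to 18 with libraries left out. Between ERβ cells, the 14 higher bins became 8 under the stricter filter (42.1%, against 34.3%) and 77 with no limit against input (16.3%, against 10.7%), and the 8 lower bins became 0 (against 11.1%) and 15 (3.17%, against 11.2%) under the same filters and 4 to 8 with libraries left out. With the looser κB word the share of occupied bins with a match was 67.9%. The stricter filter tests fewer bins and the absent input limit more, and the cause of the other changes was not tested. In the genome, 5185 bins higher with ERβ in SW480 became 15240 with array weights, 13622 without replicate 1 and 9493 with the input subtracted, and 1831 interaction bins became 12841, 9938 and 6534. With single libraries left out they ran from 2376 to 9085 and from 589 to 6007, the lowest without SW480 ERβ replicate 2 and HT29 ERβ replicate 2. The 18 promoters higher with ERβ in SW480 became 48 with array weights, 145 with promoters at 0 left out, 6 with a pseudocount of 0.25, 4 over ±200 bp and 0 to 333 with libraries left out.

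Signs changed only where the reported difference was not called. For ERβ in HT29 they changed to 0.031 at CXCL16 with array weights and to -0.047 at the CCL2 bin at -2584 with the input subtracted, and between mock cells to -0.16 at the CCL2 bin at -19584 with the input subtracted. With libraries left out, the HT29 differences ran over -0.34 to 0.29 at the CCL20 distal bin, -0.52 to 0.21 and -0.64 to 0.24 at the CCL28 intron and upstream bins, -0.19 to 0.15, -0.42 to 0.017 and -0.38 to 0.023 at the CX3CL1 intron, exon and intergenic bins, -0.23 to 0.19 at CXCL16 and -0.14 to 0.079 and -0.30 to 0.38 at the CCL2 bins at -16384 and -2584. Other ranges that span 0 were -0.10 to 0.72 for ERβ in SW480 and -0.055 to 0.86 for the interaction at the CCL28 intron bin, -0.63 to 0.11 and -0.014 to 0.36 between mock cells at the CCL20 distal bin and the CCL2 bin at -19584, and -0.061 to 0.63, -0.94 to 0.18, -0.93 to 0.12 and -0.20 to 0.66 between ERβ cells at the CCL20 promoter, the CCL28 intron and upstream bins and the CX3CL1 exon bin. Over ±200 bp of the TSS, the CX3CL1, CXCL16, CCL17 and CCL22 promoters lost calls between lines, with adjusted p of 0.166 to 0.706 (limma), except CX3CL1 between ERβ cells.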
